A study of Mus musculus with 20 samples.

Results

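The genes described here encode the hemidesmosome and 2 chains of laminin-332, the ligand to which it binds. They comprised the 9 genes named *Itga6*, *Itgb4*, *Col17a1*, *Dst*, *Plec*, *Cd151*, *Itga3*, *Lama3* and *Lamb3*, chosen by name from the 53380 genes of a bulk RNA-seq table. All 9 were among the 17204 genes that passed the filter on low values. Itga6 protein was part of the gate for sorting, so that the level of *Itga6* is not independent of how the populations were isolated.

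The hemidesmosome is the junction that fastens a basal keratinocyte to the basement membrane. Integrin α6β4 and collagen XVII span the cell membrane, plectin and the epithelial form of dystonin (BP230) link them to the keratin filaments inside, and the tetraspanin CD151 associates with the laminin-binding integrins. Outside the cell, α6β4 and integrin α3β1 bind laminin-332, to which *Lama3* and *Lamb3* contribute the α3 and β3 chains. Loss of these genes causes blistering of the skin, and keratinocytes that leave the basal layer lose these junctions.

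The 20 libraries came from dorsal epidermis of adult mice, sorted into 5 populations. There were 4 libraries of Thy1hi cells (α6+ Sca1+ Thy1hi keratinocytes), 4 of Thy1- cells (α6+ Sca1+ Thy1- keratinocytes), 4 of hair follicle stem cells (HFSCs, α6+ Sca1- CD34+) and 5 of dendritic epidermal T cells (DETCs, α6- Sca1low Thy1+), the T cells that reside in the epidermis. A further 3 libraries held YFP+ cells, that is Thy1hi cells marked by EYFP in Thy1-CreERT2;R26-EYFP mice, in which a tamoxifen-inducible Cre is driven by Thy1 regulatory sequences and switches on EYFP. The study describes the other populations as wild-type C57BL/6J mice of 8 weeks, whereas the sample labels give the genotype Thy1.2CreERT2-Rosa26-EYFP and no treatment for every library, with ages that rise from 8 to 27 weeks across the samples. The label ages do not overlap between populations, so that, if they hold, age and population cannot be told apart. For the YFP+ cells, 1 label field gives the cells as negative for Sca1, against their titles. The number of mice behind each library is not clear, as pooled mice are mentioned, so that p-values measure the spread between libraries. Libraries were run in 2 batches, and no label says which library was in which, so that a batch and a population cannot be told apart here.

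Each library had between 7781256 and 12982393 reads on genes, and 13.1% to 41.5% of these belonged to ribosomal RNA (*Rn45s*). Thy1- replicate 4 held 3212 genes in displaced rows, which were put back, and no gene described here was among them. T cell markers (7 genes) summed to between 24875 and 48057 normalized counts in DETC libraries and to at most 487 elsewhere. Hair follicle stem cell markers (6 genes) summed to 6184 to 9594 in HFSCs and to at most 2110 elsewhere. The basal keratinocyte markers *Krt5*, *Krt14*, *Krt15*, *Trp63*, *Perp*, *Sfn*, *Cdh1* and *Epcam* summed to 163649 to 234580 in Thy1hi cells, 94094 to 152932 in Thy1- cells, 154450 to 242871 in YFP+ cells, 64442 to 158054 in HFSCs and 14124 to 60990 in DETCs, so that the α6- DETC libraries were not free of keratinocyte RNA. In bulk samples, fewer cells of a type and less RNA per cell cannot be told apart.

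*Itga6* (ENSMUSG00000027111) lies at chr2:71745616-71858416 on the plus strand of mm10, and *Itgb4* (ENSMUSG00000020758) at chr11:115974709-116008412 on the plus strand. *Itga3* (ENSMUSG00000001507) lies at chr11:95044474-95076801 on the minus strand. *Col17a1* (ENSMUSG00000025064) lies at chr19:47646344-47692094 on the minus strand, *Plec* (ENSMUSG00000022565) at chr15:76170974-76232574 on the minus strand and *Dst* (ENSMUSG00000026131) at chr1:33908225-34308661 on the plus strand. *Cd151* (ENSMUSG00000025510) lies at chr7:141467392-141471473 and *Lamb3* (ENSMUSG00000026639) at chr1:193207699-193343878, both on the plus strand. Values count reads over all exons of a gene, so that the epithelial, neuronal and muscle forms of *Dst*, and the isoforms of *Plec* and *Lama3*, are not separated. A gene on the opposite strand shares 7.66% of the exon bases of *Itgb4* and 7.04% of those of *Cd151*, and had at most 9.97 and 19.5 normalized counts. Whether reads from these stretches were assigned by strand is not known. A gene on the same strand shares 1.13% of the exon bases of *Plec* and had at most 203 normalized counts.

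RefSeq promoter sequence (GRCm38.p6) was held for 5 of the 9 genes. Upstream sequence of 3 genes that were higher in Thy1hi than in Thy1- cells when libraries were paired and of *Dst*, which was not called, is shown here to set the promoters side by side. Each line is the part of the 250 bases before the most upstream RefSeq start in that table which lies outside annotated exons, 5′ to 3′ on the strand of the gene. Capitals mark the GC box GGGCGG or the TATA box TATAAA on either strand.
Col17a1: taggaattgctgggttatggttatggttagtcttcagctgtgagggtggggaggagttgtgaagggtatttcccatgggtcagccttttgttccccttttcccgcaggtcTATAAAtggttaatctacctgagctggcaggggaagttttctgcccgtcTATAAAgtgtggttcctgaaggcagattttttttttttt
Itga3: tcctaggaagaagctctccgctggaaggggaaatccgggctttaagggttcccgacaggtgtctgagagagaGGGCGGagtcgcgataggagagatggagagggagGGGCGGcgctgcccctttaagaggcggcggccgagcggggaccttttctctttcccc
Lamb3: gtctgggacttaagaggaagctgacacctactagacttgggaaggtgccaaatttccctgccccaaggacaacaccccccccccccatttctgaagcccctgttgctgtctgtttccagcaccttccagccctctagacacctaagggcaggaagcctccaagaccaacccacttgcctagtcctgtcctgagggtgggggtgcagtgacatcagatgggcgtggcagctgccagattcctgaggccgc
Dst: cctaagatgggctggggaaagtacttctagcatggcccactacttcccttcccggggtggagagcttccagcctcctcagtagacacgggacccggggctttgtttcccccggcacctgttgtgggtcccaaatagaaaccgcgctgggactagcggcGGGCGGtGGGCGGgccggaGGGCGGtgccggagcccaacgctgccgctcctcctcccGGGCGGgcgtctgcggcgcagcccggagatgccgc

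These runs are chr19:47692095-47692292 (minus strand), chr11:95076802-95076964 (minus), chr1:193301744-193301992 (plus) and chr1:34011345-34011594 (plus). The runs of *Lamb3* and *Dst* lie inside the spans of these genes given above. The RefSeq starts of *Dst* and *Cd151* were not found among GENCODE M21 transcripts. Which start these cells use was not tested. In the whole 250-base windows, *Col17a1* held 2 TATA boxes and no GC box, with 46.0% of bases G or C. *Itga3* held 3 GC boxes and *Dst* 4, at 67.6% and 68.8% G or C, and *Lamb3* held neither motif at 58.8%. The window of *Cd151* lies upstream of the span of that gene given above, but within an annotated exon, and is not printed. It held 2 GC boxes. Among all 32851 promoters of the table, 32.7% held a GC box and 12.4% a TATA box in that window, and the median share of G or C was 52.4%. The AP-1 site TGANTCA, found in 6.75% of all promoters on either strand, was in none of the 5 windows. No factor's binding was measured here.

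Compared per kilobase of exon, *Col17a1* was the most abundant of the 9 transcripts in every population, with 6672 ± 802 (SD, n = 4) normalized counts per kilobase in Thy1hi cells, 4042 ± 764 in Thy1- cells, 4768 ± 1241 in HFSCs, 5375 ± 1486 (n = 3) in YFP+ cells and 1416 ± 608 (n = 5) in DETCs. *Plec* ranked second in all 5 populations by its mean, at 1575 ± 396 per kilobase in Thy1hi cells. *Cd151* was the least abundant in each, at 111 ± 20.1 per kilobase in Thy1hi cells and 108 ± 16.5 in Thy1- cells. The middle of the order was not the same everywhere. In Thy1hi cells *Itga6* (1136 ± 152 per kilobase) stood above *Itgb4* (846 ± 81.8) and *Dst* (769 ± 224), the last 2 within their spread. In HFSCs *Dst* (981 ± 304 per kilobase) stood above *Itgb4* (544 ± 108) and *Itga6* (396 ± 120), and *Plec* (1084 ± 186) and *Dst* were within their spread. These per-kilobase levels do not correct for the isoforms in use.

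**Figure D1:**
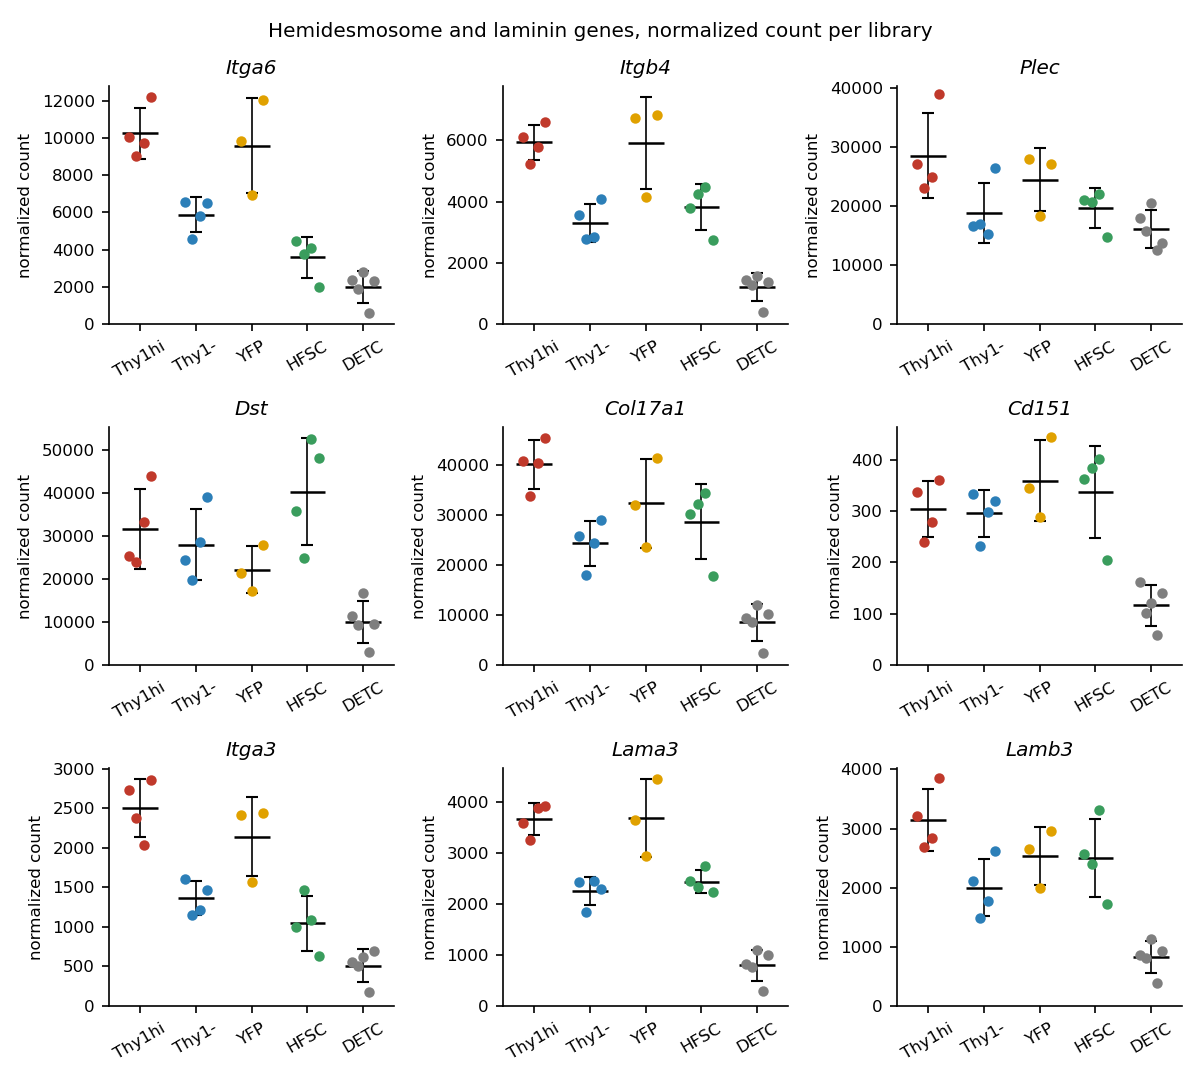
Normalized count of each of the 9 genes in every library (points) of Thy1hi, Thy1-, YFP+ (YFP), HFSC and DETC populations, with the mean (line) and SD (bar); each axis starts at 0. Thy1hi points lie above all Thy1- points for *Itga6*, *Itgb4*, *Col17a1*, *Itga3*, *Lama3* and *Lamb3*, while those of *Dst* and *Cd151* are intermixed, and DETC replicate a is the lowest DETC point in all 9 panels.

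The first comparison asked how the Sca1+ keratinocytes with and without Thy1 differ in this anchoring machinery. The 6 genes *Itga6*, *Itgb4*, *Itga3*, *Col17a1*, *Lama3* and *Lamb3* were higher in each Thy1hi library than in each Thy1- library, a pattern found in 3.59% of all genes tested, and all 9 had a higher mean, by log2 0.04 for *Cd151* to 0.88 for *Itga3*. Their median log2 fold change was 0.71, beside -0.02 over all genes tested. In the fit over all 20 libraries no member was called (limma, adjusted p of 0.425 to 0.999), where 0.337% of all genes were, although 6 members had an unadjusted p under 0.05 and edgeR and DESeq2 also called 0. Thy1hi and Thy1- libraries with the same number varied together (r from 0.293 to 0.716), although the range for unlike numbers (-0.651 to 0.514) overlapped. A replicate block over all populations, which leaves out DETC replicates a and b, called 2 of the 9 (*Itgb4* and *Lama3*; 1.26% of all genes), and a fit of only Thy1hi and Thy1- libraries without the block called 1 (*Itga3*; 0.552% of all genes). With the block and only these 8 libraries together, called the blocked fit here, 7 of the 9 were called, all higher in Thy1hi cells. In the blocked fit 6.61% of all genes were called, 3.42% as higher in Thy1hi cells.

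The integrin chains had the largest estimates. *Itga6*, the α6 chain, had 10036, 9021, 9735 and 12214 normalized counts in Thy1hi replicates 1 to 4 and 6564, 4562, 5826 and 6522 in Thy1- replicates 1 to 4. The groups did not overlap, and the difference within pairs was log2 0.61 to 0.98 (blocked 0.81 ± 0.11 SE, adjusted p 0.00306). *Itgb4*, the β4 chain, which pairs with α6 alone, had 6093, 5234, 5793 and 6608 in Thy1hi cells and 3545, 2769, 2827 and 4077 in Thy1- cells. All Thy1hi values again exceeded all Thy1- values, by log2 0.70 to 1.03 within pairs (blocked 0.86 ± 0.10, adjusted p 0.00151). *Itga3*, the α3 chain of the other laminin-332 receptor, had 2737, 2374, 2042 and 2864 in Thy1hi cells and 1607, 1152, 1213 and 1473 in Thy1- cells. It showed the largest difference of the 9, 1.84-fold (blocked log2 0.88 ± 0.10, adjusted p 0.00104), and each pair had it higher in Thy1hi cells, as was the case for 8 of the 9 members and 13.6% of all genes.

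The 2 laminin genes moved by similar amounts. *Lama3* (ENSMUSG00000024421) lies at chr18:12333819-12583013 on the plus strand. *Lama3* had 3596, 3264, 3887 and 3922 normalized counts in Thy1hi replicates 1 to 4 against 2421, 1847, 2447 and 2294 in the Thy1- replicates, and was higher in all 4 pairs (blocked log2 0.71 ± 0.10, adjusted p 0.00257). *Lamb3* had 3213, 2690, 2832 and 3850 against 2120, 1495, 1780 and 2616 (blocked log2 0.67 ± 0.10, adjusted p 0.00344). The lowest Thy1hi library for *Lamb3* lay just above the highest Thy1- library, at 2690 against 2616.

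Among the membrane-spanning and linker components the picture was uneven. *Col17a1*, which encodes collagen XVII, had 40803, 33722, 40460 and 45437 normalized counts in Thy1hi cells and 25755, 18040, 24412 and 28989 in Thy1- cells. It was higher in all 4 pairs (blocked log2 0.74 ± 0.15, adjusted p 0.0188). *Plec*, which encodes plectin, had 27095, 23036, 24982 and 38997 against 16571, 17018, 15169 and 26377. Replicate 4 was the highest in both groups and the groups overlapped, while each pair had *Plec* higher in Thy1hi cells (blocked log2 0.61 ± 0.14, adjusted p 0.0302). The calls of these 2 genes were the least stable: with quantile normalization in the blocked fit the adjusted p was 0.168 for *Col17a1* and 0.184 for *Plec*, and without a pair *Plec* was called in 0 and *Col17a1* in 1 of 4 fits, that without pair 1. The 5 integrin and laminin genes were called in all of these.

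*Dst* and *Cd151* did not pass the test in either fit. *Dst* had 25354, 23949, 33235 and 44076 normalized counts in Thy1hi cells and 24476, 19722, 28673 and 39158 in Thy1- cells. Replicates 3 and 4 were above 1 and 2 in both groups, and the spread within a group exceeded the difference between the groups. All 4 pairs had *Dst* higher in Thy1hi cells, by log2 0.05 to 0.28 (blocked log2 0.18, 95% interval -0.15 to 0.51, adjusted p 0.568). *Cd151* had 338, 240, 279 and 361 in Thy1hi cells and 333, 231, 299 and 320 in Thy1- cells, with 3 of 4 pairs higher in Thy1hi cells (blocked log2 0.04, interval -0.21 to 0.28, adjusted p 0.894). The upper bounds of these intervals lie below the blocked estimates of the 7 called genes. The interval of *Dst* overlapped those of *Plec* (0.29 to 0.92), *Col17a1* (0.40 to 1.08), *Lamb3* (0.45 to 0.88) and *Lama3* (0.49 to 0.92). Apart from the ratio of *Dst* to *Col17a1* given below, whether *Dst* or *Cd151* differs from the called genes was not tested. After rescaling to the same total the fold change of *Cd151* was -0.09, and after quantile normalization that of *Dst* was -0.14. The rescaling moved the median of all genes from -0.02 to -0.14, and the 7 called genes then stood at log2 0.48 (*Plec*) to 0.75 (*Itga3*).

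**Figure D2:**
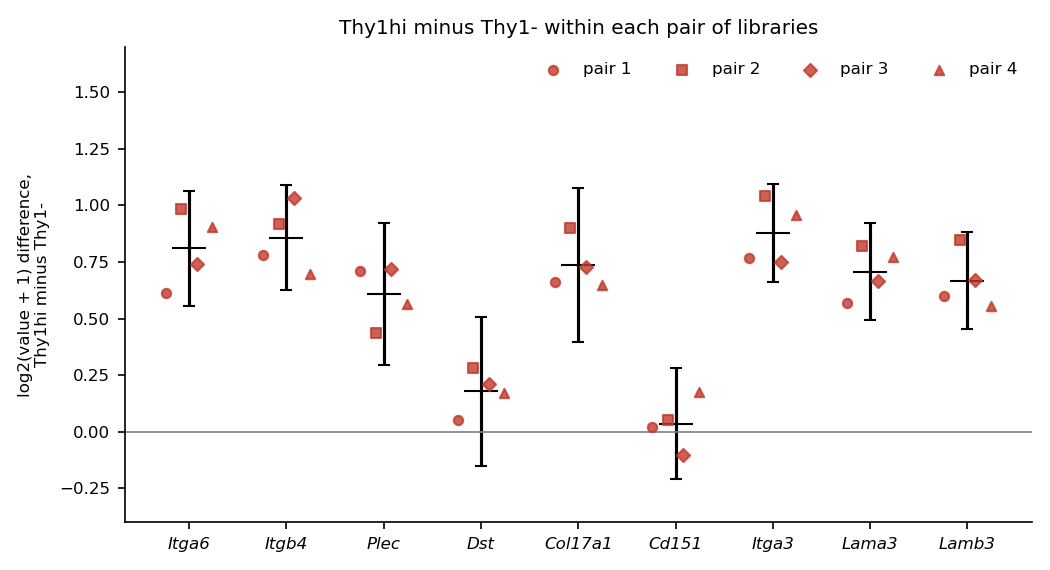
Difference in log2(value + 1) between the Thy1hi and Thy1- library of the same replicate number (points, 4 pairs) for each gene, with the estimate and 95% interval of the blocked fit (line and bar). *Dst* and *Cd151* sit near 0, with estimates of 0.18 and 0.04, and the other 7 genes between 0.61 and 0.88.

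Markers of other states moved beside these genes. In Thy1- cells the means of the 7 called genes were 54.4% to 65.8% of the Thy1hi means, that of *Dst* 88.5% and that of *Cd151* 97.2%. Of the basal keratinocyte markers, *Krt5* stood at 46.8% and *Krt14* at 46.4%, while *Sfn* (77.0%), *Trp63* (79.7%) and *Krt15* (84.4%) stood nearer to the Thy1hi mean and *Cdh1* (107.8%), *Perp* (110.6%) and *Epcam* (130.0%) above it. *Krt5* and *Krt14* made up 66.5% to 73.6% of the marker sum in Thy1hi libraries and 53.2% to 58.1% in Thy1- libraries. The sum of all 8 markers was 59.9% of the Thy1hi mean, and that of the other 6, computed after the data were seen, 91.4%. The 6 hair follicle stem cell markers summed to 692 to 993 in Thy1hi and 1898 to 2110 in Thy1- libraries, which did not overlap. *Sox9*, at 714 ± 95.5 and 1780 ± 39.4, made up most of both sums. Libraries of the 2 populations overlapped for each of the other markers. Their means were 57.8 and 78.8 for *Cd34*, 24.5 and 39.4 for *Lgr5* and 44.5 and 67.3 for *Lhx2*. Those of *Tbx1* were 29.7 and 41.2, and *Krt24* went the other way, at 18.4 and 15.6. The 6 differentiating keratinocyte markers summed to 8424 to 26623 in Thy1hi and 26143 to 39804 in Thy1- libraries, and the 6 fibroblast markers to 186 to 1946 and 123 to 215. The part of these markers in the result was not tested.

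Genes that work with the hemidesmosome were described by lists. Of 6 filament and membrane partners, 4 were higher in Thy1hi than Thy1- cells in the blocked fit and 0 lower, with a median log2 fold change of 0.61 beside -0.02 for all genes. They included *Krt5* (1.11, adjusted p 0.00588) and *Krt14* (1.11, adjusted p 0.00567), the keratins of the basal layer, *Itgb1* (0.74, adjusted p 0.00457), the partner chain of α3, and the tetraspanin *Cd81*. *Erbin*, a binding partner of BP230 and β4, had -0.02 (adjusted p 0.939) and the tetraspanin *Cd9* 0.21 (adjusted p 0.333). Of 4 other plakins, the family of *Dst* and *Plec*, 0 were called by limma in either fit, with 0 at an unadjusted p under 0.05, and all 4 had a lower mean in Thy1hi cells, from -0.05 for *Dsp* (desmoplakin) to -0.28 for *Evpl* (envoplakin). Of 21 basement membrane genes 6 were higher and 1 lower, with a median of 0.18. *Col7a1*, the collagen of the anchoring fibrils under the hemidesmosome, was among the former (0.79, adjusted p 0.00278), while *Col4a1* (0.04) and *Col4a2* (-0.01) were not called. The gene that was lower was the laminin chain *Lama4* (-1.66, adjusted p 0.00392), named after its values were seen, with 30.7 ± 16.4 normalized counts in Thy1hi and 93.2 ± 25.0 in Thy1- cells. Of 6 enzymes that process laminin-332 or shed collagen XVII, 0 were called by limma in either fit, with 0 at an unadjusted p under 0.05 and a median of -0.01, among them *Bmp1* (0.28, adjusted p 0.267) and *Adam9* (0.20, adjusted p 0.439).

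The Sca1+ keratinocytes were next set against HFSCs, which adhere to the basement membrane of the follicle bulge. *Itga6* and *Itga3* were higher in Thy1hi cells than in HFSCs and the other 7 were not called; 6.51% of all genes were called as higher and 13.4% in either direction. *Itga6* had 4460, 3757, 4087 and 2005 normalized counts in HFSC replicates 1 to 4, all below the lowest Thy1hi library at 9021. The difference was 2.97-fold (log2 1.57 ± 0.36 SE, adjusted p 0.00568). *Itga3* had 998, 1474, 1085 and 626 in HFSCs, all below the lowest Thy1hi value of 2042, a difference of 2.48-fold (log2 1.31 ± 0.33, adjusted p 0.0109). Both differences were in the genes of α chains, of which α6 was used to gate both populations as positive.

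The remaining 7 genes were not called. *Itgb4* had 3798, 4242, 4463 and 2758 normalized counts in HFSCs, below every Thy1hi library, and log2 0.66 ± 0.32 (adjusted p 0.179). *Lama3* had 2452, 2332, 2744 and 2230, also below every Thy1hi library (0.59 ± 0.28, adjusted p 0.172), as did *Plec* with 21019, 20753, 22106 and 14664 (0.53 ± 0.27, adjusted p 0.205). A gene with no overlap in this direction was met in 9.46% of all genes, and 5 of the 9 showed it. *Col17a1* had 30290, 32268, 34333 and 17749 in HFSCs (0.52 ± 0.39, adjusted p 0.402) and *Lamb3* 2565, 2394, 3315 and 1717 (0.36 ± 0.27, adjusted p 0.406). *Cd151* had 362, 383, 401 and 205 (-0.12 ± 0.27, adjusted p 0.806). *Dst* was the member with the highest mean in HFSCs relative to Thy1hi cells, with 35846, 24900, 52549 and 48278 (-0.34 ± 0.41, adjusted p 0.623), and its HFSC libraries spanned those of Thy1hi cells.

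HFSC replicate 4 was the lowest of the HFSC libraries for 8 of the 9 genes, and for *Dst* the second highest. Its basal keratinocyte marker sum was 64442, where the other 3 had 140692 to 158054, and its Langerhans cell marker sum was 60.3, where the others had 2010 to 4263. Ribosomal RNA (*Rn45s*) took 13.1% of its reads, against 38.3% to 41.5% in the other 3. Without it, *Itga6* (1.32, adjusted p 0.0221) and *Itga3* (1.09, adjusted p 0.0415) were still called as higher in Thy1hi cells.

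Between Thy1- cells and HFSCs 0 of the 9 genes were called by limma, and 1, *Itga6*, had an unadjusted p under 0.05, where 6.08% of all genes were called. edgeR and DESeq2 also called 0. *Itga6* was higher in every Thy1- library than in every HFSC library (log2 0.76 ± 0.36, adjusted p 0.206), a pattern found in 6.16% of all genes. *Itga3* had 0.43 ± 0.33 (adjusted p 0.431), and the other 7 lay between -0.52 for *Dst* and -0.08 for *Plec*. The comparisons of Thy1hi and Thy1- cells with HFSCs share the HFSC libraries.

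**Figure D3:**
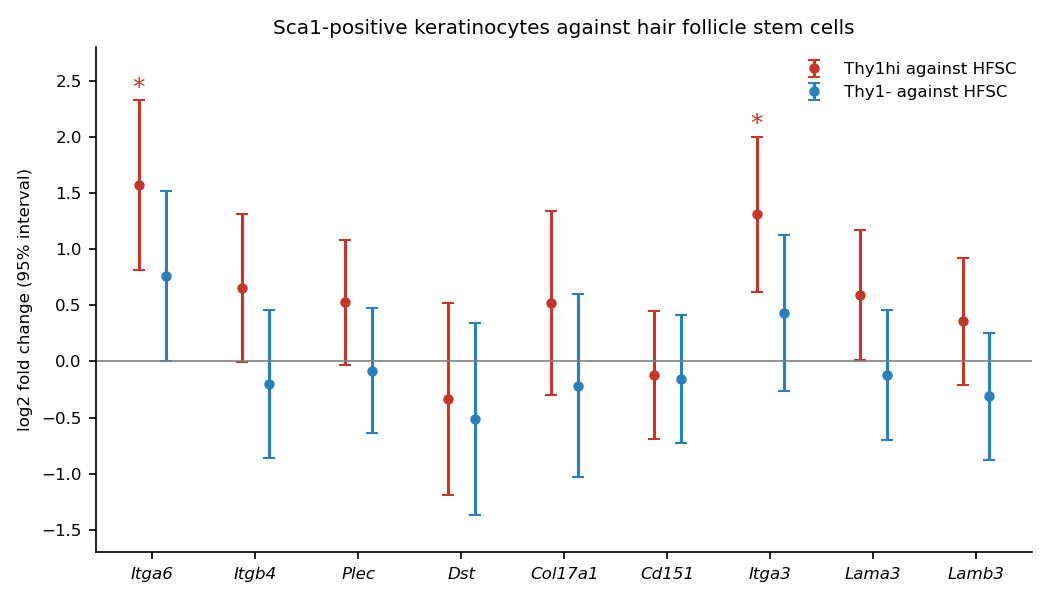
Log2 fold change with 95% interval (limma, all libraries) of each gene in Thy1hi cells (red) and Thy1- cells (blue) against HFSCs; an asterisk marks an adjusted p under 0.05. Only *Itga6* and *Itga3* in Thy1hi cells carry one, at 1.57 and 1.31.

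Among the genes beside them, *Itgb1* (1.05, adjusted p 0.00135) and *Krt14* (1.78, adjusted p 0.00912) were the 2 of 6 filament and membrane partners called higher in Thy1hi cells than in HFSCs, and *Krt5* was not called (1.04, adjusted p 0.126). Of the other plakins *Macf1*, which links microtubules and actin, was lower in Thy1hi cells (-0.97, adjusted p 0.0052), with 6501 ± 1597 normalized counts against 12554 ± 1947, and *Dsp*, *Ppl* and *Evpl* were not called. Of the 21 basement membrane genes 2 were higher and 3 lower. The lower ones were the collagen IV chains *Col4a1* (-1.16, adjusted p 0.0381) and *Col4a2* (-1.12, adjusted p 0.0293) and the laminin chain *Lama4* (-1.84, adjusted p 0.0127), the last named after its values were seen, while *Col7a1* was not called (-0.03, adjusted p 0.957). Of the processing enzymes *Tll1* was lower in Thy1hi cells (-1.95, adjusted p 0.0446), at low counts. It had 9.7 to 30.29 normalized counts in Thy1hi libraries and 41.55, 35.84, 125.08 and 203.89 in HFSC replicates 1 to 4.

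The ratio of partner genes within a library does not depend on the scaling of that library. The ratio of *Itga6* to *Itgb4* transcripts was 1.65, 1.72, 1.68 and 1.85 in Thy1hi replicates 1 to 4 and 1.85, 1.65, 2.06 and 1.60 in Thy1- replicates. It was 1.17, 0.886, 0.916 and 0.727 in HFSCs, below every library of the other 4 populations. The ratio was 1.89-fold higher in Thy1hi cells and 1.95-fold higher in Thy1- cells than in HFSCs (exact permutation test, two-sided, p = 0.0286 for each, the smallest that 4 against 4 libraries allow). Adjusted over the 20 tests of 5 ratios in 4 comparisons, the value was 0.286, and 0 of the 20 passed after adjustment. Thy1hi and Thy1- cells had ratios of 1.72 ± 0.09 and 1.79 ± 0.21 (SD, n = 4 each), and their libraries overlapped.

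The ratio of *Dst* to *Col17a1* was 0.621, 0.71, 0.821 and 0.970 in Thy1hi cells and 0.950, 1.09, 1.17 and 1.35 in Thy1- cells, the latter higher in each pair of equal number (exact permutation p = 0.0571, adjusted 0.286). In HFSCs it ranged from 0.772 to 2.72. The ratio of *Lama3* to *Lamb3* was 1.18 ± 0.15 in Thy1hi cells, 1.16 ± 0.21 in Thy1- cells and 1.01 ± 0.20 in HFSCs. It was higher in each of the 3 YFP+ libraries (1.374, 1.47 and 1.51) than in each Thy1hi library (1.02 to 1.372), with the smallest p that 3 against 4 allow (exact permutation p = 0.0571, adjusted 0.286). The ratio of *Itga3* to its partner *Itgb1* was 0.900 ± 0.176 in Thy1hi cells, 0.821 ± 0.170 in Thy1- cells and 0.747 ± 0.114 in HFSCs, and the groups overlapped. The ratio of *Plec* to *Itgb4* was 4.45, 4.40, 4.31 and 5.90 in Thy1hi cells, 4.67, 6.14, 5.36 and 6.47 in Thy1- cells and 4.89 to 5.53 in HFSCs, and was lower in Thy1hi cells in each of the 4 pairs although the groups overlapped. These tests do not use the pairing. An exact sign-flip test over the 4 pairs, chosen after the data were seen, gave p = 0.125 for *Plec* to *Itgb4* and for *Dst* to *Col17a1*, the smallest that 4 pairs allow (adjusted 0.3125 over the 5 ratios).

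**Figure D4:**
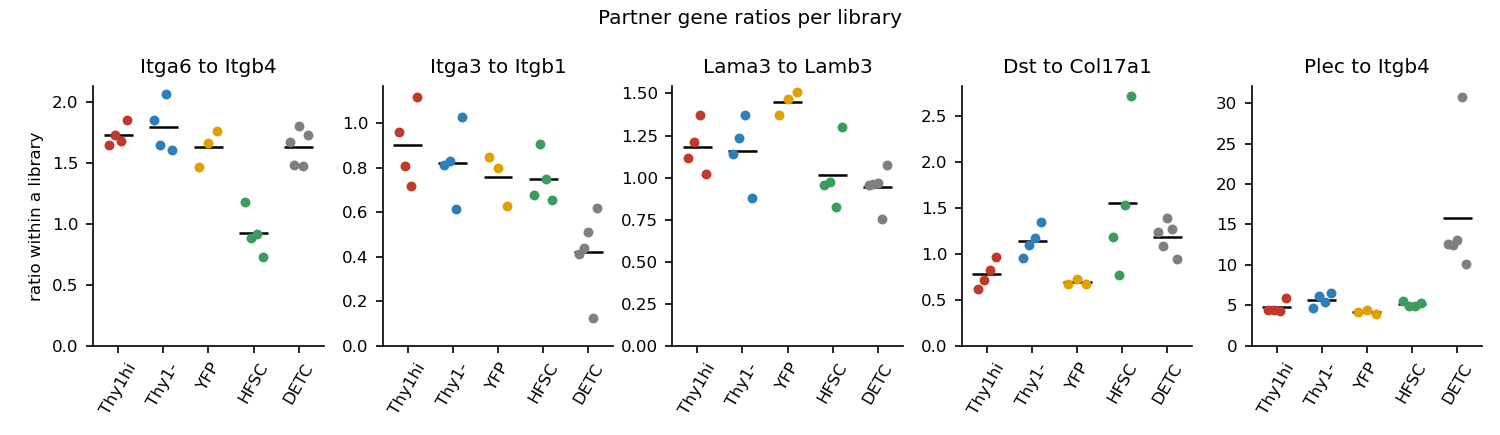
Ratio of 2 partner genes within each library (points, normalized count plus 1), with the mean per population (line); each axis starts at 0. HFSC points for *Itga6* to *Itgb4* (0.727 to 1.17) lie below those of all other populations, and DETC points for *Plec* to *Itgb4* (10.1 to 30.8) above them.

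YFP+ cells were compared with Thy1hi cells to ask whether the Cre line marks cells of the same profile. In the YFP+ libraries *Itga6* had 9852, 6917 and 12017 normalized counts, *Itgb4* 6726, 4162 and 6840, and *Itga3* 2418, 1564 and 2441. *Lama3* had 3647, 2935 and 4458 and *Lamb3* 2654, 2001 and 2957. *Col17a1* had 31899, 23589 and 41443, *Plec* 28008, 18327 and 27053, *Dst* 21330, 17173 and 27990, and *Cd151* 346, 288 and 445. Replicate 2 was the lowest YFP+ library for all 9 genes and also had the lowest basal keratinocyte marker sum, 154450 against 217330 and 242871.

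Of the 9 genes 0 were called between YFP+ and Thy1hi cells by limma, edgeR or DESeq2, with 0 at an unadjusted p under 0.05 in limma, where 0.0116% of all genes were called. The differences ran from -0.50 (*Dst*, 95% interval -1.42 to 0.42) to 0.24 (*Cd151*, -0.38 to 0.85). *Itga6* had -0.12 (-0.94 to 0.69), *Itgb4* -0.04 (-0.75 to 0.67) and *Lama3* -0.01 (-0.64 to 0.61), intervals that leave room for differences in either direction. Against Thy1- cells, 8 of the 9 had a higher mean in YFP+ cells and 0 were called by limma, edgeR or DESeq2, where 0.761% of all genes were. *Itgb4* (0.82 ± 0.34, adjusted p 0.287) and *Lama3* (0.70 ± 0.30, adjusted p 0.31) had an unadjusted p under 0.05. *Itga6*, *Itgb4* and *Lama3* were higher in all 3 YFP+ than in all 4 Thy1- libraries, a pattern found in 7.76% of all genes. *Dst* was the only one with a lower mean in YFP+ than Thy1- cells (-0.32 ± 0.44, adjusted p 0.802).

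DETCs lack hemidesmosomes and were sorted as α6-, and served as the outgroup. All 9 genes were higher in Thy1hi cells, 8 of 9 in Thy1- cells and 8 of 9 in HFSCs, where 16.6%, 15.2% and 18.5% of all genes were called as higher. Against Thy1hi cells the log2 fold changes ran from 0.82 for *Plec* (adjusted p 0.0148) and 1.44 for *Cd151* to 2.43 for *Itgb4* and 2.52 for *Itga6* (adjusted p of 0.000922 or less for the 8 other than *Plec*). *Plec* was the gene not called against Thy1- cells (0.21 ± 0.25, adjusted p 0.571) or HFSCs (0.29 ± 0.25, adjusted p 0.379). Without Thy1hi replicate 4, its adjusted p against Thy1hi cells was 0.0666, and with quantile normalization 0.483.

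The DETC libraries held *Plec* at 17892, 15791, 20488, 12535 and 13707 normalized counts in replicates 1, 2, 3, a and b, a mean of 56.4% of that in Thy1hi cells. *Itga6* had 2382, 1876, 2809, 598 and 2338 in the same libraries, *Itgb4* 1426, 1268, 1564, 406 and 1357, and *Col17a1* 9334, 8545, 12043, 2401 and 10229. *Itga6*, *Itgb4*, *Col17a1*, *Itga3*, *Lama3* and *Lamb3* stood at 19.5% to 26.2% of the Thy1hi mean in DETCs, where the basal keratinocyte marker sum stood at 22.2%, *Krt5* at 16.6%, *Krt14* at 15.6% and the sum of the other 6 markers at 36.8%. *Dst* stood at 31.7%, *Cd151* at 38.2% and *Plec* at 56.4%, all within the range of the 8 single markers (15.6% to 59.6%). Of these markers only *Epcam* (59.6%) stood above *Plec*, and the next was *Cdh1* at 47.5%.

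DETC replicate a was the lowest DETC library for all 9 genes. It held the basal marker sum at 6.96% of the Thy1hi mean, the 6 genes above at 5.84% to 12.5%, *Dst* at 9.66%, *Cd151* at 18.9% and *Plec* at 43.9%, where the 8 single markers ran from 4.41% to 27.9%. Its T cell marker sum, 48057, was the highest of the 5. The members were thus lowest in the DETC library with the lowest keratinocyte markers, with *Plec* the least so, at 12535 against 13707 to 20488 in the others. The part of keratinocyte RNA in these levels was not tested. Without replicate a, *Itga6* no longer differed past the threshold between HFSCs and DETCs (0.56, adjusted p 0.0737, against 0.95, adjusted p 0.0328), and with a replicate block over all populations, which leaves out replicates a and b, it did not either (0.60, adjusted p 0.0819).

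**Figure D5:**
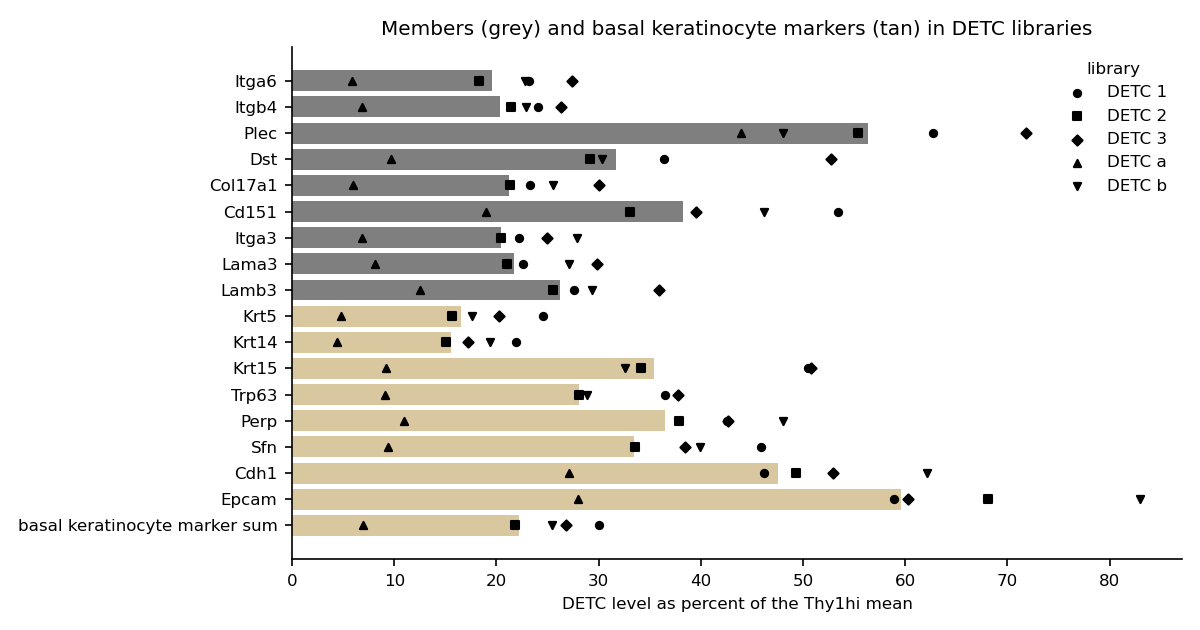
Level in DETC libraries as percent of the Thy1hi mean for the 9 genes (grey bars, mean of 5 libraries) and the 8 basal keratinocyte markers and their sum (tan bars), with each library as a point. *Plec* stands at 56.4%, while *Itga6*, *Itgb4*, *Col17a1*, *Itga3* and *Lama3* stand at 19.5% to 21.7%, beside 22.2% for the marker sum.

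Across the 15 keratinocyte and HFSC libraries, the log2 levels of the 9 genes rose and fell together to an uneven degree. The median Pearson correlation over the 36 pairs of genes was 0.73, given as a description over libraries that share depth and population. The same median was not computed for other sets of genes, so that it is not shown to be particular to these. *Itga6* and *Itga3* had the highest value (0.95), followed by *Col17a1* and *Lamb3* (0.94) and *Itgb4* and *Lama3* (0.92). Pairs with *Dst* had a median of 0.06 and a lowest value of -0.34, with *Itga3*. Once the population means were removed, the median over all pairs was 0.75 and that of pairs with *Dst* 0.36, while pairs with *Cd151* went from a median of 0.46 to 0.85.

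The genes outside the 9 whose pattern was most like the mean of their scaled levels over these 15 libraries were *Ywhah* (r = 0.96), *Marveld1* (0.95), *Tln1* (0.94), *Krt5* (0.94) and *Shisa5* (0.93). *Krt5* was also the gene most like *Itgb4* (0.96), *Tln1* (talin, which links β1 integrins to actin) the one most like *Plec* (0.95), and *Marveld1* the one most like *Col17a1* (0.95) and *Lamb3* (0.95). *Mcm4*, a subunit of the replicative helicase, was most like *Itga6* (0.98), *Chaf1b* most like *Lama3* (0.90), *Wnt10a*, a Wnt ligand, most like *Itga3* (0.95), *Tdrd3* most like *Dst* (0.91) and *Gm19972* most like *Cd151* (0.93).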

How the data were processed

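The deposited values are DESeq2-normalized counts (the signal) of 53380 Ensembl genes in 20 libraries, which the authors made with STAR alignment to mm10 and featureCounts. Library kits named in the sources include poly(A) and stranded total RNA kits, and whether counting used strand is not given in the sources used here. Each column was whole reads divided by 1 size factor, and whole reads were recovered for 100% of values in every library, with a tolerance of 0.0051 normalized counts plus 1e-06 of the value. The values of 1 column (Thy1- replicate 4) follow the order of gene names without hyphens and were put back, which moved 3212 genes. The columns of DETC replicates a and b carry numbers that match no label.

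The 17204 genes that reached 10 normalized counts in 3 or more libraries were fitted with limma 3.58.1 (trend) in R 4.3.3 on log2(value + 1), with 1 mean per population over all 20 libraries. Fold changes are on that scale. Tests were two-sided, and a gene was called at a Benjamini-Hochberg adjusted p under 0.05 over those 17204 genes. Exact permutation tests used scipy 1.17.1, with a smallest p of 0.0286 for 4 against 4 libraries, 0.0571 for 3 against 4 and 0.0159 for 4 against 5. Alternatives were other pseudocounts, filters and scalings, edgeR 4.0.16 and DESeq2 1.42.0 on whole reads, only 2 populations, replicate blocks, the deposited row order, and each library left out. The scripts were tested on simulated data.

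Same-numbered Thy1hi and Thy1- libraries deviated together from their group means (r from 0.293 to 0.716, 4 pairs), as did HFSC and DETC libraries (0.170 to 0.333, 3 pairs). Pairs of unlike number ran from -0.651 to 0.514 (12 pairs) for the former and from -0.318 to 0.371 (17 pairs) for the latter. The ranges of like and unlike numbers thus overlapped. Other comparisons shared only a number. The pairing comes from the data, and the blocked fit used only Thy1hi and Thy1- libraries.

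Named genes were the 9 members, at most 5 genes of each list in the order written plus called ones, and the genes most alike by Pearson correlation. The members, lists and rules were chosen with earlier results of these data known. Promoters were those of RefSeq (GRCm38.p6); gene positions matched GENCODE M21 for all 9.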

Additional observations from a re-analysis of the deposited data

Results flagged for a closer look

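Of 36 sets of 4 or 5 libraries (9 genes in 4 populations), 2 held a library far from the rest by Dixon's test, which by chance marks about 1 in 20. *Plec* had 26377 normalized counts in Thy1- replicate 4, where the other 3 had 15169 to 17018, and Thy1hi replicate 4 was also the highest of its group, at 38997. *Itgb4* had 406 normalized counts in DETC replicate a, where the other 4 had 1268 to 1564, beside the lowest basal keratinocyte marker sum of the DETC libraries (14124). The cause of either value was not tested.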

How the results depend on the processing

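Counts of called members were within 1.5 times the reported ones in 156 of 168 alternative values, and fold changes of single members kept direction and side of the threshold in 1420 of 1512. For Thy1hi against Thy1- cells, 0 members were called in the fit reported first, 1 (*Itga3*) with only the 2 populations, 2 with the replicate block over all populations and 7 with the block and only these populations. That last fit gave, in variants chosen after the data were seen, 6 when rescaled to the same total, 5 with quantile normalization, and 6, 5, 5 and 5 without pairs 1 to 4. The block over all populations gave 4 in place of 2 for Thy1hi against HFSC (*Itgb4* and *Lama3* added), 1 in place of 0 for Thy1- against HFSC (*Itga6*) and 2 in place of 0 for YFP+ against Thy1- cells (*Itgb4* and *Lama3*). In these 3 comparisons libraries share only a number. Leaving out each library gave 8 to 9 called members for Thy1hi against DETC, 7 to 8 for HFSC against DETC, and the reported count in the other 6 comparisons.

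Directions turned only for differences that were not called. For Thy1hi against Thy1- cells *Cd151* was -0.0884 when rescaled to the same total and -0.00992 without the fourth pair, both with and without the block, and -0.0769 to 0.144 without single libraries, and *Dst* was -0.14 with quantile normalization, with or without the block. For Thy1- against HFSC, rescaling moved the median of all genes from 0.04 to 0.25 and gave 0.0171 for *Itgb4*, 0.138 for *Plec*, 0.00528 for *Col17a1*, 0.0621 for *Cd151* and 0.0996 for *Lama3*. *Plec* was 0.151 with quantile normalization and -0.256 to 0.00957 without single libraries. For YFP+ against Thy1hi cells, *Lama3* was 0.0272 when rescaled, 0.103 with quantile normalization, 0.00798 with edgeR, 0.00357 with DESeq2 and 0.0217 without the fourth pair, and *Itgb4* 0.00284 when rescaled and 0.0173 without that pair. Without single libraries *Itga6* ran from -0.303 to 0.0952, *Itgb4* from -0.160 to 0.199 and *Lama3* from -0.161 to 0.141. *Plec* was -0.0188 with quantile normalization and -0.0374 with the block over all populations for Thy1- against DETC, and -0.169 with quantile normalization for HFSC against DETC. Of the ratios (log2 differences), *Itga6* to *Itgb4* ran from -0.0988 to 0.0230 and *Lama3* to *Lamb3* from -0.0873 to 0.129 for Thy1hi against Thy1- cells, and *Dst* to *Col17a1* from -0.587 to 0.0192 for Thy1- against HFSC, without single libraries. The causes were not tested.

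Over all genes, rescaling moved the share of called genes that were higher in the first population from 34.5% to 11.8% for Thy1hi against Thy1- cells, from 48.7% to 61.5% for Thy1hi against HFSC, from 42.1% to 71.6% for Thy1- against HFSC and from 44.6% to 56.3% for Thy1- against DETC. Quantile normalization moved it to 52.3% and 56.8% in the last 2 and from 45.5% to 56.6% for Thy1hi against DETC.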
